A study of Mus musculus with 26 samples.

Results

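Keratin-associated proteins are small proteins that fill the space between keratin filaments in hard keratin structures such as the hair shaft and cross-link those filaments, largely through disulfide bonds. Their genes, written Krtap in the mouse, have a single exon and lie in clusters. The families are divided by composition into high sulfur, ultra-high sulfur and high glycine-tyrosine proteins. The tongue has no hair follicles, but the filiform papillae on its upper surface end in hard tips that contain hair-type keratins, the hard keratins.

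The deposited table held 14 Krtap genes, in 20 of its 18676 rows and among 17023 gene identifiers. All genes whose mouse symbol begins with Krtap and a digit were taken, and rows with a shared mouse identifier were averaged into 1 gene. Every row of the table pairs a mouse gene with a human ortholog. The mouse annotation of GRCm38 has 57 protein-coding Krtap genes, and those outside the 14 were not analysed here. Of the 14, 8 lie on chromosome 11 and 6 on chromosome 16. By family number 8 are high sulfur genes, 4 ultra-high sulfur and 2 high glycine-tyrosine.

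The libraries came from tongues of male CBA mice in a model of oral carcinogenesis driven by 4-NQO, a compound that damages DNA. Epithelium and the tissue under it (stroma with muscle) were cut by laser from fixed, paraffin-embedded sections along a pathologist's map, and total RNA was sequenced. Normal tissue (mice of 16 to 24 weeks), hyperplasia (20 to 32 weeks) and tumor (28 to 32 weeks) had 3 libraries each per compartment, and dysplasia (16 to 32 weeks) had 4, which makes 26 libraries. Exposure to 4-NQO is not stated in the labels for the mice with normal tissue, and neither is which libraries share a mouse. Libraries of a group are called biological replicates. P-values may therefore reflect the spread between samples of shared animals. Values are log2(TPM + 1), where TPM is a relative abundance scaled to transcript length. The sequencing depth behind it is unknown. In tissue cut out in bulk, fewer cells of a type and less RNA per cell cannot be told apart.

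The libraries were uneven in quality. In 4 libraries 3 genes with dominant signal held a large share of the listed TPM, against a median of 1.02%. The share was 18.1% in dysplasia epithelium 2, and among stroma libraries 48.2% in normal 1, 86.9% in hyperplasia 1 and 54.9% in dysplasia 2. Further stroma libraries were also above the median, at 8.87% to 11.8%: normal 3, hyperplasia 3, dysplasia 1, dysplasia 3 and tumor 2. Olfactory receptor genes, taken here as a gauge of background, averaged between 0.38 in hyperplasia stroma 1 and 2.26 in hyperplasia stroma 2. The markers of epithelium (7 genes in the table, among them Krt5 and Cdh1) averaged 8.46 to 10.23 in the 13 epithelium libraries. They averaged 3.94 to 8.73 in stroma, so these transcripts were present in the stroma libraries too, to varying degrees.

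The stretch from 70 bases before to 30 bases after each gene start is shown for the 7 genes that were expressed in epithelium, followed by 3 neighbours that were near 0, which sets the starts of high and low genes side by side. The sequences are the RefSeq promoters of GRCm38.p6, found for 13 of the 14 genes. They are given 5′ to 3′ on the strand of the gene, with the letters TATAAA in capitals.

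Krtap3-1: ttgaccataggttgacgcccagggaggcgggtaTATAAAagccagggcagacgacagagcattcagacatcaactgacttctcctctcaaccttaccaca
Krtap3-3: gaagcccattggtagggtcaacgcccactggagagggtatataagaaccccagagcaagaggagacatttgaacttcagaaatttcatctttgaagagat
Krtap4-2: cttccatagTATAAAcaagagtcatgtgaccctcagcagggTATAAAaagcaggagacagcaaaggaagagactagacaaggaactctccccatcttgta
Krtap4-16: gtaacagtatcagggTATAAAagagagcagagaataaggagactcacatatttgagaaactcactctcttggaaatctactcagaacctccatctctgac
Krtap9-3: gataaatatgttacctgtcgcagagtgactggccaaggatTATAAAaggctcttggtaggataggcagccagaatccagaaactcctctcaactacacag
Krtap26-1: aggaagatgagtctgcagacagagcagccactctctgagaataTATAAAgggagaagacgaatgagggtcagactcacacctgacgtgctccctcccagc
Krtap27-1: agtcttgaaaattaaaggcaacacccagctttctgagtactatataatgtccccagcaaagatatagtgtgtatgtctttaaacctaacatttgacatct
Krtap9-5: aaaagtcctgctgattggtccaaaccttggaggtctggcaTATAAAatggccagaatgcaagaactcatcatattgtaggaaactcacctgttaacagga
Krtap16-1: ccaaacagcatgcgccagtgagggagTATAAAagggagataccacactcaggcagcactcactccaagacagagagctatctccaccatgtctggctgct
Krtap24-1: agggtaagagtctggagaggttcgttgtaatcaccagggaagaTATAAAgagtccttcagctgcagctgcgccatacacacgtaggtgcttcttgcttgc

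On chromosome 11 these stretches lie at chr11:99566601-99566700 (Krtap3-1), chr11:99550834-99550933 (Krtap3-3), chr11:99635055-99635154 (Krtap4-2), chr11:99851576-99851675 (Krtap4-16), chr11:99598077-99598176 (Krtap9-3) and chr11:99986564-99986663 (Krtap16-1), all on the minus strand, and at chr11:99948354-99948453 (Krtap9-5, plus strand). On chromosome 16 they lie at chr16:88647767-88647866 (Krtap26-1), chr16:88671695-88671794 (Krtap27-1) and chr16:88612250-88612349 (Krtap24-1), all on the minus strand. The motif TATAAA, searched on the strand of the gene within these 100 bases, stood in 11 of 13 Krtap promoters (84.6%), against 3.607% of the 32851 promoters in the table. It was found in 5 of the 7 expressed genes, with Krtap3-3 and Krtap27-1 lacking those exact letters, and in 6 of the 6 others that had a sequence. Searched on both strands of the whole 300 bases, the share was 84.6% for the Krtap genes and 13.62% for all promoters. Low and expressed genes alike thus carried the motif.

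Only part of the family was expressed, taken here as a TPM of 1 or more in 3 or more of the 13 epithelium libraries, which 7 of the 14 genes reached. Krtap3-1 was the highest of the 14 in 11 of the 13 epithelium libraries and Krtap3-3 in the other 2. In normal epithelium Krtap3-1 averaged 8.46 ± 0.81 (SD, n = 3), Krtap3-3 7.62 ± 0.89, Krtap4-16 6.23 ± 0.87, Krtap4-2 5.91 ± 0.97, Krtap9-3 5.41 ± 1.10, Krtap27-1 3.78 ± 1.07 and Krtap26-1 2.69 ± 0.76. All genes were measured in the same 3 libraries, and the SDs are spreads between these libraries. In each of the 3 libraries the order was Krtap3-1, Krtap3-3, Krtap4-16, Krtap4-2 and Krtap9-3, from high to low. This order, and the top rank of Krtap3-1, rest on averages of rows that differed. The highest row of Krtap3-3 averaged 8.69 in normal epithelium, above Krtap3-1. The highest rows of Krtap9-3 and Krtap4-2 averaged 6.62 and 6.57, above Krtap4-16. The other rows of each gene averaged less. The means of Krtap4-16 and Krtap4-2 differed by no more than their SDs, and so did those of Krtap4-2 and Krtap9-3. Krtap3-1 and Krtap3-3 differed by about their SDs, and the steps from Krtap3-3 to Krtap4-16, from Krtap9-3 to Krtap27-1 and from Krtap27-1 to Krtap26-1 were larger. The other 7 genes averaged 0.13 (Krtap24-1) to 0.76 (Krtap11-1) there, below the mean of the olfactory receptors in normal epithelium (1.10).

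The 7 low genes were at or near 0 in most libraries. They are Krtap8-1 and Krtap7-1, both high glycine-tyrosine, the high sulfur genes Krtap11-1, Krtap16-1, Krtap24-1 and Krtap29-1, and the ultra-high sulfur gene Krtap9-5. Krtap9-5 was listed at 0 in every stroma library. The highest value among these 7 was 2.01, for Krtap8-1 in normal stroma 2, where the olfactory receptors averaged 1.27. Krtap8-1 reached a TPM of 1 or more in 6 of the 26 libraries. By the same rule applied to the stroma libraries it was expressed there, with a mean of 1.26 in normal stroma. Krtap7-1 reached 1.65 in tumor stroma 1, where the olfactory receptors averaged 1.48, and Krtap29-1 reached 1.19 in hyperplasia stroma 2, the library with the highest olfactory receptor mean.

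Among the 14 genes, expressed and low ones lay in separate stretches of the chromosomes. The 14 are only 8 of the 23 annotated protein-coding Krtap genes of chromosome 11 and 6 of the 24 of chromosome 16. Genes lying between them were not analysed, so the stretches may hold others of either kind. On chromosome 11 the expressed genes ran from Krtap3-3 (chr11:99550130-99550865, minus strand) through Krtap3-1 (chr11:99566027-99566630), Krtap9-3 (chr11:99597347-99598105) and Krtap4-2 (chr11:99634111-99635084) to Krtap4-16 (chr11:99850655-99851608). Beyond it lay Krtap9-5 (chr11:99948475-99949551), Krtap29-1 (chr11:99978025-99979053) and Krtap16-1 (chr11:99984710-99986597), all low. On chromosome 16 the expressed pair Krtap26-1 (chr16:88646824-88647796) and Krtap27-1 (chr16:88671026-88671671) had the low Krtap24-1 (chr16:88610705-88612279) on one side. The low Krtap8-1, Krtap7-1 and Krtap11-1 lay farther along, from chr16:89487379 to chr16:89571183. Coordinates are GRCm38, and each of the 14 genes is annotated with a single exon.

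**Figure D1:**
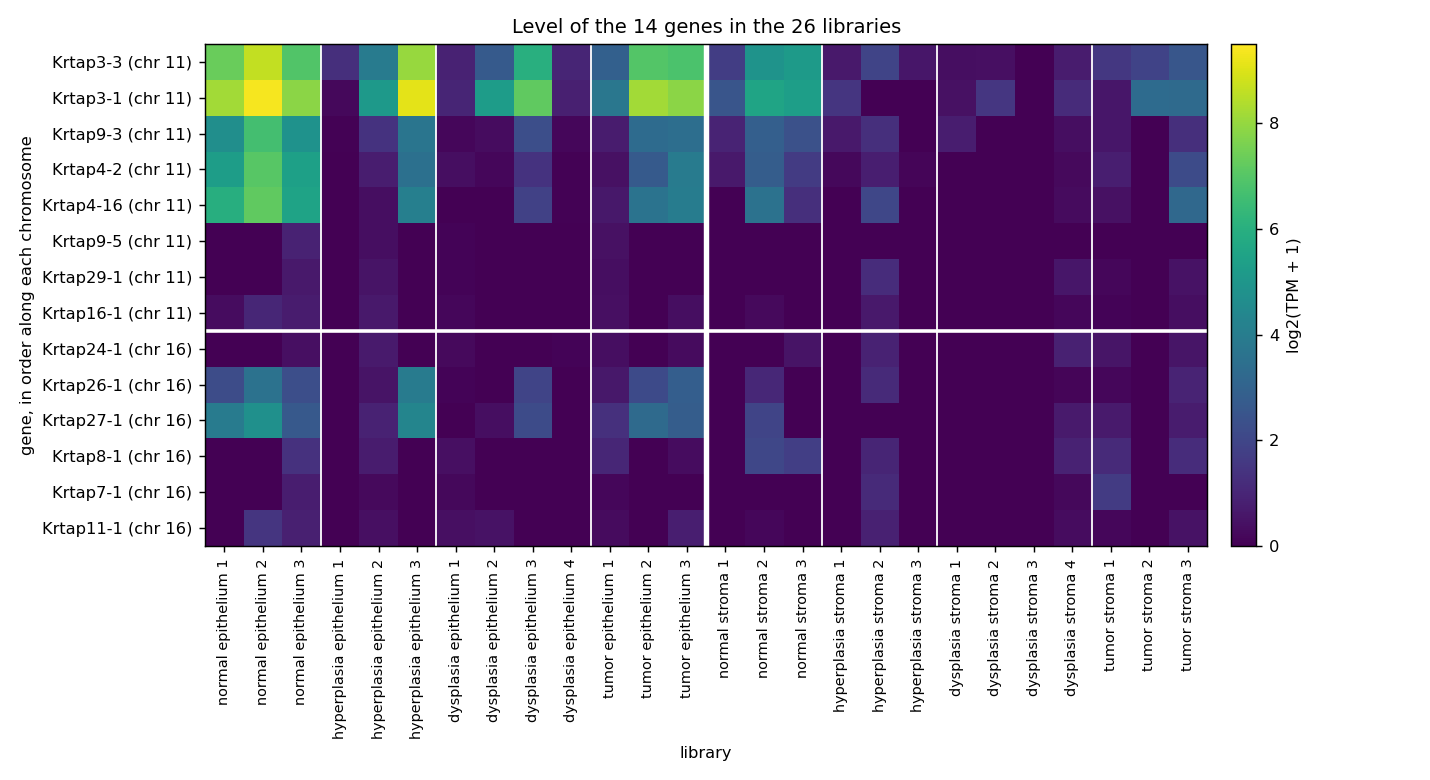
Level of the 14 Krtap genes, as log2(TPM + 1) by colour, in 26 libraries (columns, epithelium left of stroma, stages in order). The bright rows are the 7 expressed genes, in order along chromosomes 11 and 16, and they are dark in hyperplasia epithelium 1 and in dysplasia epithelium 1 and 4.

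Some of these genes cannot be fully told apart from their relatives. Krtap4-2 stood in 5 rows, all paired with human KRTAP4-6, and Krtap3-3 and Krtap9-3 in 2 rows each. Rows with the same identifier held different values. In normal epithelium the 5 rows of Krtap4-2 averaged 5.30 to 6.57, the 2 of Krtap3-3 averaged 6.56 and 8.69, and the 2 of Krtap9-3 averaged 4.19 and 6.62. Which row belongs to which mouse gene is not given in the sources used here, so these 3 genes are uncertain as to identity. Both rows of Krtap9-3 are paired with human KRTAP1-1, a gene of another family number, and its class here goes by the mouse symbol. In the transcript annotation 41.3% of the 50-base words of Krtap3-3 recur in other Krtap genes, most in Krtap3-2. The share was 12.7% for Krtap9-3, most of it in Krtap1-4, 9.95% for Krtap4-2, 8.83% for Krtap3-1 and 0 for the other 10 genes, Krtap4-16 included.

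The comparison across stages asked how the family behaves as normal epithelium passes through hyperplasia and dysplasia to tumor. The summed TPM of the Krtap rows was 1069, 2798 and 894 in the 3 normal epithelium libraries. It was 3.17, 78.3 and 1479 in hyperplasia, 5.63, 62.9, 356 and 3.26 in dysplasia, and 40.7, 745 and 671 in tumor. Normal epithelium was high in each library, whereas hyperplasia, dysplasia and tumor each held libraries that were low and others that were far higher.

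Krtap4-2, an ultra-high sulfur gene, was at 5.29, 7.03 and 5.40 in normal epithelium, 0.00, 0.77 and 3.50 in hyperplasia, 0.34, 0.16, 1.39 and 0.05 in dysplasia, and 0.42, 2.69 and 3.96 in tumor. Every normal library was above every other epithelium library for this gene. Krtap4-16, of the same class, was at 5.96, 7.20 and 5.52 in normal epithelium, 0.00, 0.36 and 4.11 in hyperplasia, 0.00, 0.00, 1.83 and 0.07 in dysplasia, and 0.61, 3.62 and 4.01 in tumor. Krtap9-3, also ultra-high sulfur, was at 4.70, 6.67 and 4.85 in normal epithelium, 0.06, 1.39 and 3.70 in hyperplasia, 0.15, 0.31, 2.27 and 0.15 in dysplasia, and 0.72, 3.32 and 3.43 in tumor. For these 2 genes, too, the normal libraries overlapped with no other stage.

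Krtap3-1, a high sulfur gene, was at 8.18, 9.37 and 7.83 in normal epithelium, 0.20, 5.09 and 9.10 in hyperplasia, 0.98, 5.24, 7.19 and 0.84 in dysplasia, and 3.78, 8.18 and 7.84 in tumor. Krtap3-3 of the same family was at 7.34, 8.62 and 6.91 in normal epithelium, 1.28, 3.93 and 8.05 in hyperplasia, 0.90, 2.69, 5.98 and 0.98 in dysplasia, and 2.92, 6.95 and 6.81 in tumor. Hyperplasia and tumor overlapped with normal tissue for both genes, and dysplasia did not. As TPM, Krtap3-1 spanned 0.151 to 546.6 among the hyperplasia libraries alone.

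Krtap26-1, a high sulfur gene of chromosome 16, ranged over 2.22 to 3.57 in normal epithelium, 0.00 to 3.94 in hyperplasia, 0.00 to 1.95 in dysplasia and 0.60 to 2.85 in tumor. Krtap27-1 next to it ranged over 2.64 to 4.76, 0.00 to 4.33, 0.00 to 2.16 and 1.30 to 3.28 in the same order. Only the dysplasia libraries of both genes all lay under normal tissue.

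**Figure D2:**
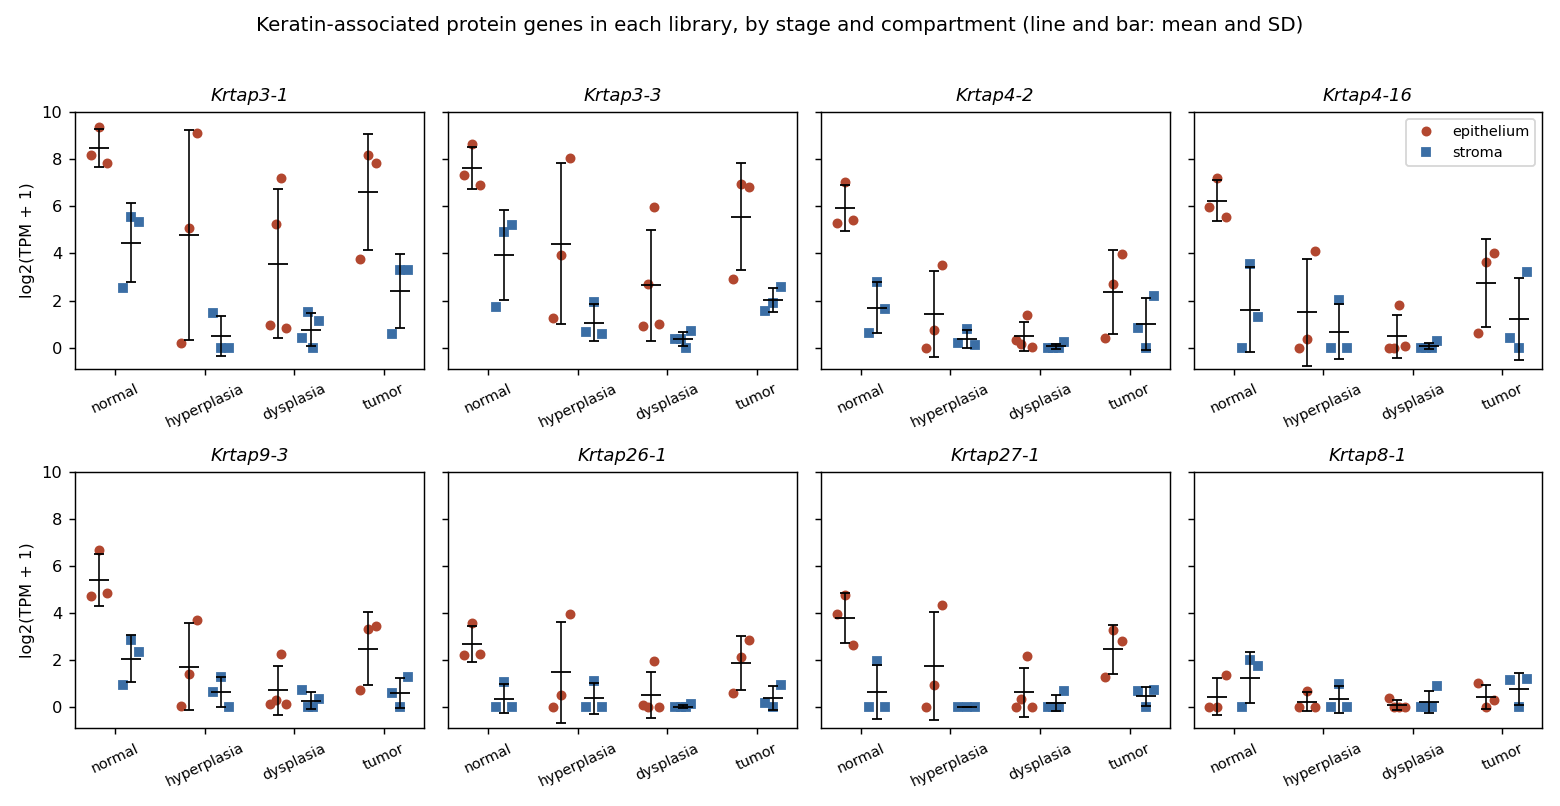
Log2(TPM + 1) of the 7 expressed genes and of Krtap8-1, by stage, in epithelium (circles) and stroma (squares), 1 point per library, with mean and SD. Krtap4-2, Krtap4-16 and Krtap9-3 are higher in the 3 normal epithelium libraries than in all 10 others.

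In dysplastic against normal epithelium, 3 of the 14 Krtap genes were called lower and 0 higher, where 0.309% of the 14541 genes tested were called lower (limma, Benjamini-Hochberg adjustment over all genes, threshold 0.05). Krtap4-16 fell by 5.80 ± 0.85 on the log2 scale (SE, adjusted p = 0.00226, limma), Krtap4-2 fell by 5.50 ± 0.75 (adjusted p = 0.0017) and Krtap9-3 fell by 4.75 ± 0.77 (adjusted p = 0.0062). Krtap3-3 had a difference of -5.13 ± 1.26 (adjusted p = 0.0697), Krtap3-1 -5.09 ± 1.57, Krtap27-1 -3.19 ± 0.79 and Krtap26-1 -2.27 ± 0.73, none of which passed. The other 7 Krtap genes were too low to enter the test. Over all 14 genes the mean was lower in dysplasia for 14, with a median difference of -1.40, against -0.03 over all 17023 genes.

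For 8 of the 14 genes every dysplasia library lay under every normal library. These were the 7 expressed ones, where 3.49% of genes tested did so, and Krtap16-1, which was too low to enter the test. Krtap16-1 ranged over 0.31 to 1.01 in normal epithelium, below the olfactory receptor mean of 1.10, and over 0.00 to 0.15 in dysplasia. The differences held in both sequencing runs. Krtap4-2 differed by -4.54 in run 1 (2 dysplasia libraries against 1 normal library) and by -6.06 in run 2 (2 against 2), and Krtap4-16 by -4.61 and -6.55. Without dysplasia epithelium 2, the library with 18.1% of its TPM in 3 genes, 6 Krtap genes were called, all but Krtap26-1 of the 7. The share of all genes called without that library is not given here. With the genes of several rows left out, Krtap4-16 alone was called. The split over all genes, 28 higher and 45 lower, turned to 178 and 140 under quantile normalization and 46 and 46 under median centring, with 3 Krtap genes called lower in each.

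The test borrows its estimate of spread from all genes of a like level, and in epithelium the 7 Krtap genes tested each varied more than that. The SD of Krtap4-2 around its stage means was 1.40, against the 0.97 used in the test, and for Krtap3-1 the values were 3.14 and 2.04. With each gene's own spread, an alternative added after the values had been seen, 0 Krtap genes were called in dysplasia and 1 gene of the whole table was, with an adjusted p of 0.355 for Krtap4-16, 0.353 for Krtap4-2 and 0.376 for Krtap9-3 (limma without moderation).

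In hyperplastic against normal epithelium, 1 of the 14 genes was called lower and 0 higher, where 0.0275% of genes tested were called lower. Krtap4-2 fell by 4.64 ± 0.81 (adjusted p = 0.0343, limma), with differences of -3.27 in run 1 (2 hyperplasia libraries against 1 normal library) and -6.16 in run 2 (1 against 2). Krtap4-16 differed by -4.82 ± 0.92 (adjusted p = 0.0706) and Krtap9-3 by -3.83 ± 0.83 (adjusted p = 0.113). These 3 genes were the members with every hyperplasia library under every normal library, which held for 1.55% of genes tested. The call ended, with 0 Krtap genes called, when normal epithelium 1, 2 or 3 or hyperplasia epithelium 1 was left out, and under quantile normalization, median centring and rescaling without the dominant genes. Without hyperplasia epithelium 3, the library in which Krtap3-1 stood at 9.10, 4 genes were called lower (Krtap4-2, Krtap4-16, Krtap9-3 and Krtap27-1). The share of all genes called in that fit is not given here. Over all genes 2 were called higher and 4 lower, which became 17 and 6 under quantile normalization and 9 and 4 after the rescaling.

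In tumor against normal epithelium, 0 of 14 Krtap genes were called (limma), and 3 had an unadjusted p under 0.05. Of all genes tested 0.00688% were called lower. Krtap4-2 differed by -3.70 ± 0.81 (adjusted p = 0.125), Krtap4-16 by -3.57 ± 0.92 (adjusted p = 0.228) and Krtap9-3 by -3.06 ± 0.83 (adjusted p = 0.298). For these 3 genes each tumor library was under each normal library, as for 5.11% of genes tested. Krtap3-1 differed by -2.24 with a 95% interval from -5.80 to 1.32, and its tumor libraries 2 and 3 (8.18 and 7.84) lay within the normal range. Normal mice were all younger than the mice with tumor, so age and stage cannot be told apart in this comparison.

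Between the later stages none of the genes tested was called in epithelium. In tumor against dysplasia 0 Krtap genes were called (0% of genes tested), 5 had an unadjusted p under 0.05, and the mean was higher in tumor for 14 of 14, with a median difference of 0.85 against 0.06 over all genes. Krtap4-16 differed by 2.22 ± 0.85, Krtap4-2 by 1.80 ± 0.75 and Krtap27-1 by 1.79 ± 0.79 (each adjusted p = 1.00). In the same comparison the 8 skeletal muscle markers averaged 3.28 to 5.58 in tumor and 1.21 to 2.04 in dysplasia, with all 8 differences positive and 7 at an unadjusted p under 0.05. The 7 fibroblast markers averaged 3.84 to 5.11 in tumor and 2.81 to 3.69 in dysplasia, all 7 differences being positive and 5 at an unadjusted p under 0.05. The part of either tissue in the Krtap differences was not tested. In dysplasia against hyperplasia 0 were called (0% of genes tested) and 0 had an unadjusted p under 0.05. An F test over the 4 stages called 3 Krtap genes, against 0.165% of genes tested: Krtap4-2 (adjusted p = 0.0129), Krtap4-16 (adjusted p = 0.0169) and Krtap9-3 (adjusted p = 0.045, limma). It called 0 without normal epithelium 1 or 2, 1 without dysplasia epithelium 1 and 5 without hyperplasia epithelium 3. It also called 0 under quantile normalization, median centring, rescaling without the dominant genes, the replicate block, a pseudocount of 0.1 and each gene's own spread, and 1 without the filter on low values.

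**Figure D3:**
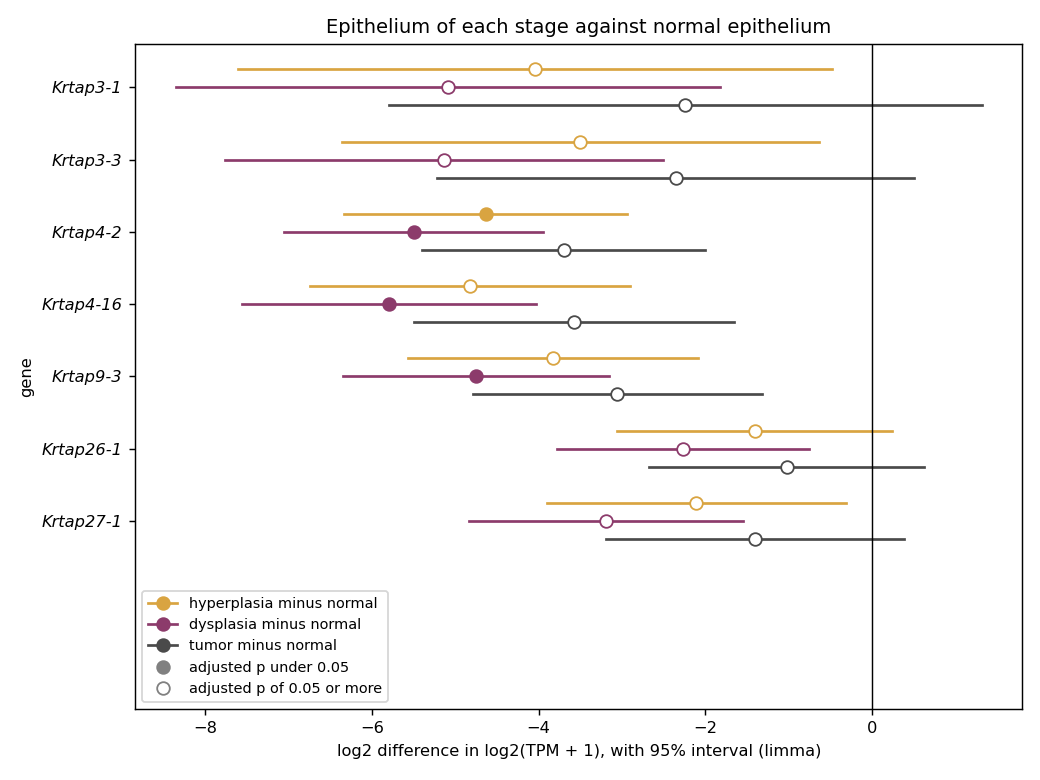
Log2 differences from normal epithelium of the 7 expressed genes in hyperplasia, dysplasia and tumor, with 95% intervals from limma. Filled points passed an adjusted p of 0.05, which were Krtap4-2 in hyperplasia and Krtap4-2, Krtap4-16 and Krtap9-3 in dysplasia.

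The ultra-high sulfur mean minus the high sulfur mean, on the log2(TPM + 1) scale, was lower in the other stages than in normal epithelium. In normal epithelium the 3 expressed ultra-high sulfur genes (Krtap4-2, Krtap4-16 and Krtap9-3) had about the level of the 4 high sulfur genes, with differences between the class means of -0.11, 0.39 and 0.35 in the 3 libraries. The difference was -0.35, -1.77 and -2.58 in hyperplasia, -0.33, -1.91, -2.49 and -0.37 in dysplasia, and -1.57, -1.93 and -1.27 in tumor, so that all 10 lay under the normal libraries. In hyperplasia epithelium 3 the high sulfur mean of 6.35 was within the normal range of 4.91 to 6.58, while the ultra-high sulfur mean was 3.77, against 5.26 to 6.97 in normal tissue. Where both classes approached 0, in hyperplasia epithelium 1 and dysplasia epithelium 1 and 4, the difference could not be large. The floor at 0 can also lower the difference. Krtap26-1 and Krtap27-1, both high sulfur, averaged only 2.69 and 3.78 in normal epithelium. The 3 ultra-high sulfur genes averaged 5.41 to 6.23 there, and the other high sulfur genes, Krtap3-1 and Krtap3-3, averaged 8.46 and 7.62. The part of the floor in this contrast was not tested. Krtap9-3 counts as ultra-high sulfur by its mouse symbol alone, as its rows are paired with human KRTAP1-1. This contrast was looked at after the values had been seen and is given without a test.

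**Figure D4:**
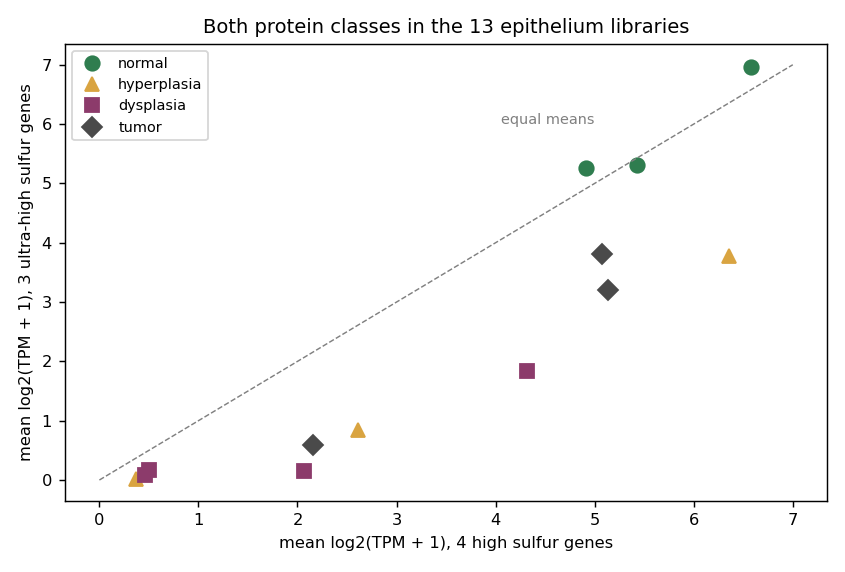
Mean log2(TPM + 1) of the 3 ultra-high sulfur genes against that of the 4 high sulfur genes in the 13 epithelium libraries, 1 point per library, with a line of equal means. The 3 normal libraries lie near the line and the 10 others below it, with differences down to -2.58.

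Hard keratins, the filament partners of these proteins, went the same way in the same libraries. Of 16 listed hard keratins 9 were in the table and 7 were high enough to test. In dysplastic against normal epithelium 5 of the 9 were called lower and 0 higher, where 0.309% of genes tested were called lower. The median difference was -3.81 over those tested, against 0.01 over all genes tested. Krt33a fell by 5.59 ± 0.99 (adjusted p = 0.0115) and Krt39 by 3.81 ± 0.78 (adjusted p = 0.0249), both type I filament proteins, and Krt86, a type II partner, fell by 5.51 ± 1.24 (adjusted p = 0.0491, limma). Krt32 and Krt35 were the other two. Krt36 and Krt84, the highest hard keratins in normal epithelium (means 9.24 and 8.41), were tested and not called. Their means in dysplasia were 6.22 and 6.04. The values of Krt33a and Krt86 are averages over several rows, as for Krtap4-2. Against normal epithelium, 0 of the 9 were called in hyperplasia and 0 in tumor, with 4 at an unadjusted p under 0.05 in each (limma).

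The hard keratin mean was 5.17, 6.0 and 4.86 in normal epithelium, 1.29, 2.72 and 5.49 in hyperplasia, 1.20, 2.22, 3.80 and 1.46 in dysplasia, and 2.17, 4.46 and 4.33 in tumor. The 3 epithelium libraries lowest in hard keratins, hyperplasia epithelium 1 and dysplasia epithelium 1 and 4, were also the 3 lowest in summed Krtap TPM. These means share libraries and depth with the Krtap values and are a description.

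**Figure D5:**
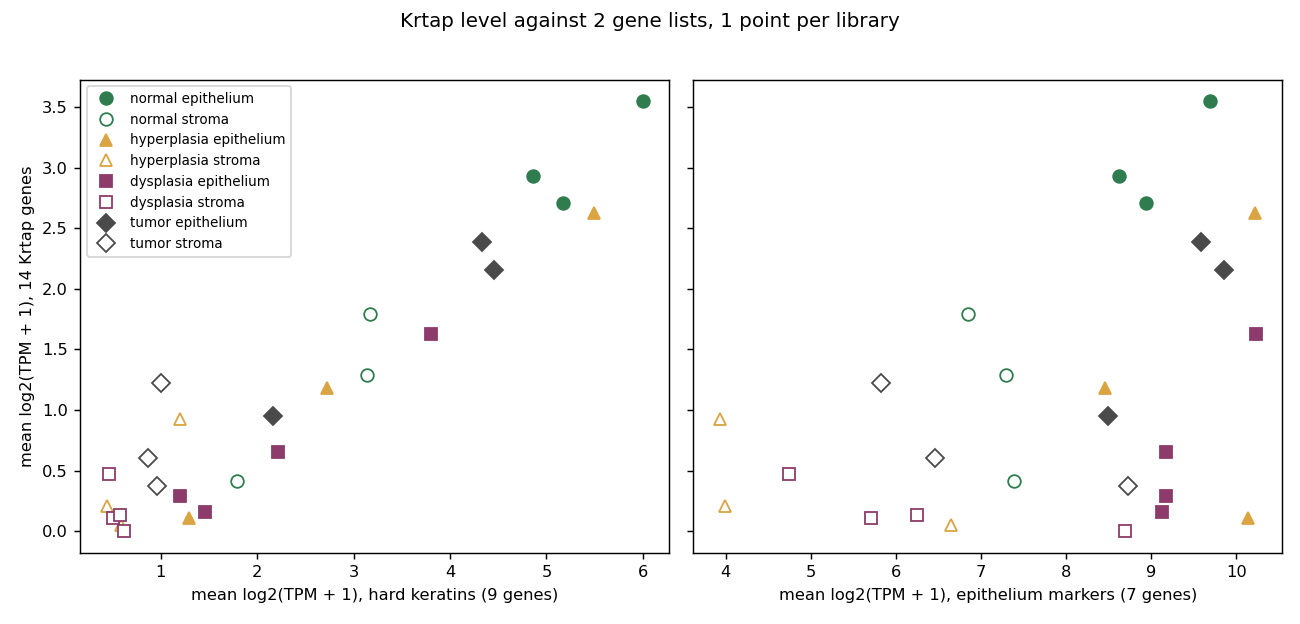
Mean log2(TPM + 1) of the 14 Krtap genes against that of 9 hard keratins (left) and of 7 epithelium markers (right), 1 point per library, with epithelium filled and stroma open. Libraries high in hard keratins are high in Krtap genes, whereas the epithelium markers of the 13 epithelium libraries stay between 8.46 and 10.23.

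Other genes of hard keratin structures moved in part. Of 8 listed genes of the hair shaft 7 were tested in dysplastic against normal epithelium. Of these 2 were called lower (median -1.44), against 0.309% of genes tested. Dsg4, a desmosomal cadherin of the hair shaft, fell by 2.73 ± 0.46 (adjusted p = 0.00888), and Gprc5d, an orphan receptor of hard keratinizing cells, fell by 2.66 ± 0.38 (adjusted p = 0.0017, limma). Gprc5d was also called lower in hyperplasia, where it fell by 2.69 ± 0.41 (adjusted p = 0.0146). Of 10 regulators of hair and papilla development 0 were called in dysplasia and 5 had an unadjusted p under 0.05 (limma), with 9 of the 10 differences negative and a median of -0.87, against 0.01 over all genes tested. Those with the largest differences were Foxq1 (1.68), Dlx3 (-1.67) and Msx2 (-1.54), and Hoxc13, a homeobox regulator of hair keratin genes, had -1.11. The inner root sheath keratins, which belong to the hair follicle and not to its shaft, averaged 0 to 1.13 over all 26 libraries.

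Markers of other tissue in the same libraries were as follows. The 7 epithelium markers averaged 9.13 to 10.23 in dysplastic and 8.62 to 9.70 in normal epithelium, with 0 called by limma and 2 at an unadjusted p under 0.05. The 8 skeletal muscle markers averaged 1.21 to 2.04 in dysplastic and 1.35 to 6.55 in normal epithelium, with 0 called by limma, 5 at an unadjusted p under 0.05 and all 8 differences negative. In normal epithelium 1, 2 and 3 the muscle markers averaged 4.09, 1.35 and 6.55, and the summed Krtap TPM was 1069, 2798 and 894. The part of muscle in the Krtap values was not tested. The 6 leukocyte markers averaged 1.66 to 2.35 in dysplastic and 0.93 to 1.85 in normal epithelium. Of the 5 tested, Cd68, a lysosomal protein of macrophages, was called higher (2.07 ± 0.41, adjusted p = 0.0232, limma). Over all 14541 genes tested 28 were called higher. The 7 fibroblast markers averaged 2.81 to 3.69 in dysplastic and 3.64 to 4.35 in normal epithelium, with 0 called, 3 at an unadjusted p under 0.05 and 6 of 7 differences negative. The 5 endothelium markers averaged 2.23 to 3.28 in dysplastic and 1.49 to 2.68 in normal epithelium, with 0 called, 1 at an unadjusted p under 0.05 and no negative difference.

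In hyperplastic epithelium the epithelium markers averaged 8.46 to 10.22, the muscle markers 2.27 to 4.76, the fibroblast markers 2.23 to 3.67 and the leukocyte markers 2.11 to 2.39, against 8.62 to 9.70, 1.35 to 6.55, 3.64 to 4.35 and 0.93 to 1.85 in normal epithelium in the same order. None of these markers was called. All 8 muscle and all 7 fibroblast differences were negative, 0 and 3 of them at an unadjusted p under 0.05, and the 5 leukocyte markers tested all had positive ones, 3 at an unadjusted p under 0.05. The salivary gland markers averaged 4.93 in tumor epithelium 1, the tumor library with the fewest Krtap transcripts, against 1.17 and 1.76 in the other tumor libraries. The part of these cells in the Krtap differences was not tested.

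The comparison of compartments asked where the Krtap transcripts lie. Across 13 pairs of epithelium and stroma, 7 of the 14 Krtap genes were higher in epithelium and 0 lower, where 18.7% of the 16020 genes tested were called higher in epithelium. Differences within pairs were averaged by stage, and the 4 stages were given equal weight. Krtap26-1 and Krtap27-1 did not meet the expression rule in stroma and entered this test through their epithelium libraries. The filter thus favoured their calls as higher in epithelium. The mean difference was 3.83 ± 0.72 for Krtap3-1 (adjusted p = 0.000795), 3.22 ± 0.59 for Krtap3-3 (adjusted p = 0.000656), 1.84 ± 0.47 for Krtap4-16 (adjusted p = 0.00685), 1.83 ± 0.42 for Krtap27-1 (adjusted p = 0.0033), 1.76 ± 0.36 for Krtap4-2 (adjusted p = 0.00163), 1.69 ± 0.39 for Krtap9-3 (adjusted p = 0.00384) and 1.35 ± 0.36 for Krtap26-1 (adjusted p = 0.0095, limma). Krtap3-3 was higher in epithelium in 13 of 13 pairs, Krtap3-1 in 11, Krtap4-2, Krtap9-3 and Krtap27-1 in 10 each, Krtap4-16 in 9 and Krtap26-1 in 8. Krtap8-1 had a difference of -0.34 with an interval from -0.76 to 0.07, and was higher in epithelium in 0 pairs, equal in 7 and lower in 6. The split over all genes, 3002 higher and 1716 lower in epithelium, turned to 1313 and 2326 after rescaling without the dominant genes, and 6 Krtap genes were then called higher and 0 lower, Krtap9-3 having lost its call (adjusted p = 0.0525). Under quantile normalization the 7 genes were called higher and Krtap8-1 lower.

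The mean gap between compartments varied by stage. Krtap4-16 differed by 4.61 ± 2.30 (SD, n = 3) in normal pairs, 0.82 ± 2.97 in hyperplasia, 0.40 ± 0.96 in dysplasia and 1.53 ± 1.83 in tumor. For Krtap3-1 the differences were 4.00 ± 1.69, 4.31 ± 5.23, 2.79 ± 3.39 and 4.21 ± 0.89 in the same order. Whether the tumor change differs between compartments was tested on the pairs, and 0 Krtap genes and 0% of all genes were called. An unadjusted p under 0.05 was found for 2 members, Krtap4-2 (-2.85 ± 1.07) and Krtap4-16 (-3.08 ± 1.37), each with an adjusted p of 1.00 (limma).

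In stroma the summed Krtap level was low, and highest in normal tissue. The summed TPM was 15.6, 180 and 146 in normal stroma, 5.65, 22.9 and 1.84 in hyperplasia, 2.78, 2.55, 0.00 and 8.02 in dysplasia, and 14.9, 17 and 55.1 in tumor. Krtap3-1 was at 2.52, 5.54 and 5.32 in normal stroma, 1.47, 0.00 and 0.00 in hyperplasia, 0.41, 1.51, 0.00 and 1.15 in dysplasia, and 0.57, 3.31 and 3.28 in tumor. Krtap3-3 was at 1.72, 4.89 and 5.18 in normal stroma, 0.65, 1.95 and 0.59 in hyperplasia, 0.35, 0.38, 0.00 and 0.73 in dysplasia, and 1.55, 1.91 and 2.56 in tumor. Every dysplasia library lay under every normal library for 4 of the 14 genes (Krtap3-1, Krtap3-3, Krtap4-2 and Krtap9-3), where 2.34% of genes tested did so. Gene by gene the picture was mixed. Against normal stroma the mean was lower for 7 genes and higher for 6 in hyperplasia, lower for 9 and higher for 4 in dysplasia, and lower for 7 and higher for 6 in tumor, with 1 gene equal each time. In dysplasia stroma 3 all 14 genes were listed at 0, although the epithelium markers averaged 8.69 there.

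In dysplastic against normal stroma, 1 of the 14 genes was called lower and 0 higher, where 0.0326% of the 15345 genes tested were called lower. Krtap3-3 fell by 3.65 ± 0.77 (adjusted p = 0.0439), and Krtap3-1 differed by -3.62 ± 0.83 (adjusted p = 0.0772, limma). The call ended, with 0 Krtap genes called, when normal stroma 2 or 3 or dysplasia stroma 3 or 4 was left out, and 2 genes were called without normal stroma 1 or without dysplasia stroma 2. It ended as well under quantile normalization, median centring and rescaling, without the run term, with the replicate block, without the filter, with a pseudocount of 0.1 and with the gene's own spread. In the same libraries Krt36, a hard keratin of the papillae, was the only one of 9 hard keratins called (-4.42 ± 0.85, adjusted p = 0.0191, limma). The epithelium markers averaged 4.74 to 8.69 in dysplastic and 6.85 to 7.39 in normal stroma, and the skeletal muscle markers averaged 3.29 to 7.26 in dysplastic and 7.30 to 9.46 in normal stroma. Their part in the difference was not tested.

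In hyperplastic against normal stroma 0 Krtap genes were called and 6 had an unadjusted p under 0.05, with 0.00652% of genes called lower. The median over all genes tested was -0.71 in that comparison, a general shift downward. Krtap3-1 (-3.83 ± 0.90, adjusted p = 0.176) and Krtap3-3 (-3.03 ± 0.84, adjusted p = 0.338, limma) went the same way as that shift, by more than the median. The epithelium markers averaged 3.94 to 6.65 in hyperplastic and 6.85 to 7.39 in normal stroma, and the skeletal muscle markers 2.96 to 6.82 in hyperplastic and 7.30 to 9.46 in normal stroma. All 7 epithelium and all 8 muscle differences were negative, 3 and 7 of them at an unadjusted p under 0.05, with 0 called (limma), and their part in the Krtap values was not tested. Without normal stroma 1, 2 Krtap genes were called lower. In tumor against normal stroma 0 were called (0% of genes called lower) and 3 had an unadjusted p under 0.05, led by Krtap9-3 (-1.57 ± 0.63). In tumor against dysplasia 0 were called, against 0.143% of genes, and 2 had an unadjusted p under 0.05. In dysplasia against hyperplasia 0 were called (0% of genes) and 0 had an unadjusted p under 0.05. The F test over the stages called 0 Krtap genes, against 0.169% of genes, with 5 at an unadjusted p under 0.05. The lowest adjusted p was 0.0531, for Krtap3-1 (limma). It called 2 genes without normal stroma 1, hyperplasia stroma 3, dysplasia stroma 2 or tumor stroma 3, and 1 gene without dysplasia stroma 1 or 4 or tumor stroma 1.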

How the data were processed

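RNA-seq of 26 laser-dissected tongue libraries was read from the authors' table, deposited as log2 values of TPM plus a pseudocount of 1; the scale was read from the values. Per the submitters' processing notes, which give no roles, the named tools include Salmon 0.9.1, HTSeq 0.10.0 and STAR 2.5.1b, and the build is GRCm38.p6. TPM hides depth, so no counting intervals were computed, and differences understate changes of low genes.

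Rows were averaged by mouse identifier. Genes that reached 1 TPM in 3 or more libraries of a fit were tested in R 4.3.3 with limma 3.58.1 (stage and sequencing run as terms, moderation following the mean), with Benjamini-Hochberg adjustment over all genes at 0.05. Compartments were compared within 13 pairs matched by stage, sample code, age and run; no label gives these pairs, and 7 of 13 correlated over 0.1. The fits were tested on simulated data. Promoters came from RefSeq (GRCm38.p6), gene positions from GENCODE release 21 for mouse.

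Named were called Krtap genes, the 10 highest Krtap genes, the 3 with the smallest p in each direction of a comparison, and called members of each list or else its 3 largest differences; the low Krtap genes, Hoxc13 and the class contrast were added after their values were seen. Members and lists were chosen with earlier results of these data known. Alternatives covered filter, pseudocount, scaling, run, age, replicate number, row handling and left-out libraries.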

Additional observations from a re-analysis of the deposited data

Results flagged for a closer look

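Within the groups of 4 libraries, each gene tested in its compartment was checked for a library standing apart from the other 3, by Dixon's criterion at its 95% critical value for 4 samples. Of 13 gene and group combinations 7 stood apart. Chance flags about 1 in 20 groups of values with no floor, a rate that does not apply where the other libraries are all at 0, since any value above 0 then stands apart. Dysplasia epithelium 3 was high for 4 genes, with values of 1.83 for Krtap4-16 (the others 0.00 to 0.07), 2.27 for Krtap9-3 (the others 0.15 to 0.31), 1.95 for Krtap26-1 (the others 0.00 to 0.11) and 2.16 for Krtap27-1 (the others 0.00 to 0.35). This library also had the highest hard keratin mean of its group, 3.80. Dysplasia stroma 4 was high for 3 genes whose other libraries were all listed at 0, with 0.23 for Krtap4-2, 0.29 for Krtap4-16 and 0.90 for Krtap8-1. These values are under the olfactory receptor mean of 1.38 in the same library. The genes share libraries, so these are not independent.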

How the results depend on the processing

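Over the called Krtap genes, 239 alternative values were computed. All 239 kept their direction, 211 kept an adjusted p under 0.05 and 28 lost it. The losses were uneven. Krtap4-2 in hyperplastic epithelium lost its call in 11 of 16 alternatives and Krtap3-3 in dysplastic stroma in 12 of 18. In dysplastic epithelium Krtap4-16 lost it in 1 of 18, Krtap4-2 in 1 of 17 and Krtap9-3 in 2 of 17. Between compartments only Krtap9-3 lost it, in 1 of 21. Settings in which a gene did not enter the test, and the separate-row setting, are not in these totals. Counts of Krtap genes called stayed at 0 under every alternative run for tumor against normal, dysplasia against hyperplasia and tumor against dysplasia in both compartments, and for the tumor change between compartments.

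For hyperplasia against normal epithelium (1 gene), the count was 0 without a filter on low values, with a pseudocount of 0.1, with only identifiers that have a row of their own, under quantile normalization, after rescaling without 3 dominant genes, under median centring, with a replicate block and with each gene's own spread. It was 3 with age as a covariate and 3 with every row separate, and 0 to 4 with 1 library left out. For dysplasia against normal epithelium (3 genes) it was 1 with only identifiers that have a row of their own, 5 with age as a covariate, 0 with each gene's own spread and 3 to 6 with 1 library left out. For the F test in epithelium (3 genes) it was 1 without the filter, 0 with the smaller pseudocount, 1 with only such identifiers, 0 under each of the 3 scalings, 0 with the replicate block, 0 with each gene's own spread, and 0 to 5 with 1 library left out.

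For dysplasia against normal stroma (1 gene) the count was 0 without the filter, with the smaller pseudocount, with only such identifiers, under each of the 3 scalings, without the run term, with the replicate block and with each gene's own spread. It was 2 with age as a covariate, 2 without the 3 stroma libraries dominated by a few genes, and 0 to 2 with 1 library left out. For hyperplasia against normal stroma (0 genes) it was 2 with age as a covariate, 1 without those 3 libraries and 0 to 2 with 1 library left out. For the F test in stroma (0 genes) it was 1 with only such identifiers, 2 with age as a covariate, 1 with the replicate block, 2 without those 3 libraries, 2 with every row separate and 0 to 2 with 1 library left out. For epithelium against stroma (7 genes) it was 2 with a stricter filter (1 TPM in 0.5 or more of the libraries) and 4 with only identifiers that have a row of their own, settings in which fewer Krtap genes enter the test, 6 after rescaling (Krtap9-3 lost) and 8 under quantile normalization (Krtap8-1 called lower). Beyond the settings that test fewer genes, the cause of these changes was not tested. For most of these settings the share of all genes called is not given. A changed Krtap count may go with a general change in calls.

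Rescaling moved the median over all genes to -0.14 in dysplasia against normal epithelium and to -0.23 in hyperplasia against normal epithelium. Replicate numbers of the titles pair no samples across stages by the labels, and 10 of 36 same-number pairs correlated over 0.1. The replicate block left the dysplasia count in epithelium at 3. Without the pairs (8 groups and run as terms, no replicate block), 7 Krtap genes were higher in epithelium. Values of low genes lie near the background of each library, and depth is unknown, so a gene listed at 0 is not shown to be absent. The own-spread and separate-row alternatives were chosen after seeing the data.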
